A study of Mus musculus with 6 samples.

Results

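Collagen genes and the enzymes that modify and cross-link collagen were followed in mouse renal cortex. They were taken from the gene table by symbol, as every gene named Col, a number, a and a number, together with the lysyl oxidases Lox and Loxl1 to Loxl4, the prolyl hydroxylase subunits P4ha1 to P4ha3, the lysyl hydroxylases Plod1 to Plod3 and the collagen chaperone Serpinh1. This gave 54 genes of 19176 rows. There were 11 fibrillar collagens, 8 basement membrane collagens, 23 other collagens and 12 enzymes, the chaperone being counted with the enzymes. Col9a1 and Col19a1 were not analysed here. The mice were male, wild-type C57BL/6J and 8 weeks old, and all had the blood supply of the left kidney clamped off for 35 min (unilateral ischemia-reperfusion injury, UIRI). The UIRI group received vehicle and the UIRI + BA group received Bruceine A (BA, a plant quassinoid that the labels spell brucine A) at 1 mg/kg each day, both by intraperitoneal injection for 14 days. The right kidney was removed on day 13, so every injured kidney was alone for the last day, and cortex was collected on day 14. Each group had 3 libraries of poly-A RNA, and the question was how BA changed collagen transcripts in injured kidneys. No uninjured kidney was among the libraries, so no value below says how far a gene lay from its level in a healthy cortex.

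Collagens are secreted proteins of 3 chains wound into a triple helix. Fibrillar types (I, III, V) form the tension-bearing fibers of scar tissue, in the kidney laid down mainly by interstitial fibroblasts and pericytes. Type IV forms the sheet-like network of the basement membranes under tubules and around glomerular capillaries. Inside the cell, prolyl hydroxylases stabilize the helix, lysyl hydroxylases prepare cross-linking sites and the chaperone HSP47, encoded by Serpinh1, accompanies the folded chains. Outside the cell, lysyl oxidases join neighbouring molecules into stable fibers.

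The main chains of the fibrillar types I, III and V and the cross-linking enzyme Lox were lower with BA, at 0.684 (Col3a1) to 0.805 (Col5a1) of their UIRI means, but none passed an adjusted p in limma. The type IV chains that form most basement membranes were nearly level, and 1 prolyl hydroxylase subunit, P4ha1, stood higher, at a ratio of 1.18. Of the 54 genes, 44 had a lower and 10 a higher mean on the log2 scale with BA, beside 9793 lower and 9383 higher of all 19176 rows. The median log2 difference (UIRI + BA minus UIRI, on log2 of the normalized count plus 1, where a normalized count is the reads of a gene over the size factor of its library) was -0.18, beside -0.01 over all 19176 rows. In limma, 0 of the 54 genes passed an adjusted p of 0.05, and 0% of all rows did. At an unadjusted p below 0.05, 13 genes (24.1%) were lower, beside 4.61% of all rows. By the same line 1 gene (1.85%) was higher, beside 5.67% of all rows. In 12 genes all UIRI + BA libraries lay below all UIRI libraries, beside 6.96% of all rows, and in 2 they lay above, beside 7.45%. Most of the lower genes were well expressed. Among the 28 members whose normalized counts averaged 1000 or more, 10 (35.7%) were lower at that line, beside 3.96% of the 5308 rows of the same level. In the other direction 1 (3.57%), P4ha1, was higher, beside 7.69% of those rows. DESeq2, run on whole reads recovered by undoing the size factors, gave 44 members an adjusted p and passed 3 of them at 0.05, Lox, Col1a1 and Col3a1, all lower, beside 0.349% of all genes with an adjusted p in that direction. edgeR's quasi-likelihood test tested 50 members and passed 0 at an adjusted p, with 12 lower and 1 higher at an unadjusted p, beside 4.41% and 5.52% of all genes in that fit. The count of 13 lower members was 20 without UIRI replicate 3, when 11.5% of all rows were also lower at that line, and 8 without UIRI + BA replicate 1, when 2.72% of all rows were.

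**Figure D1:**
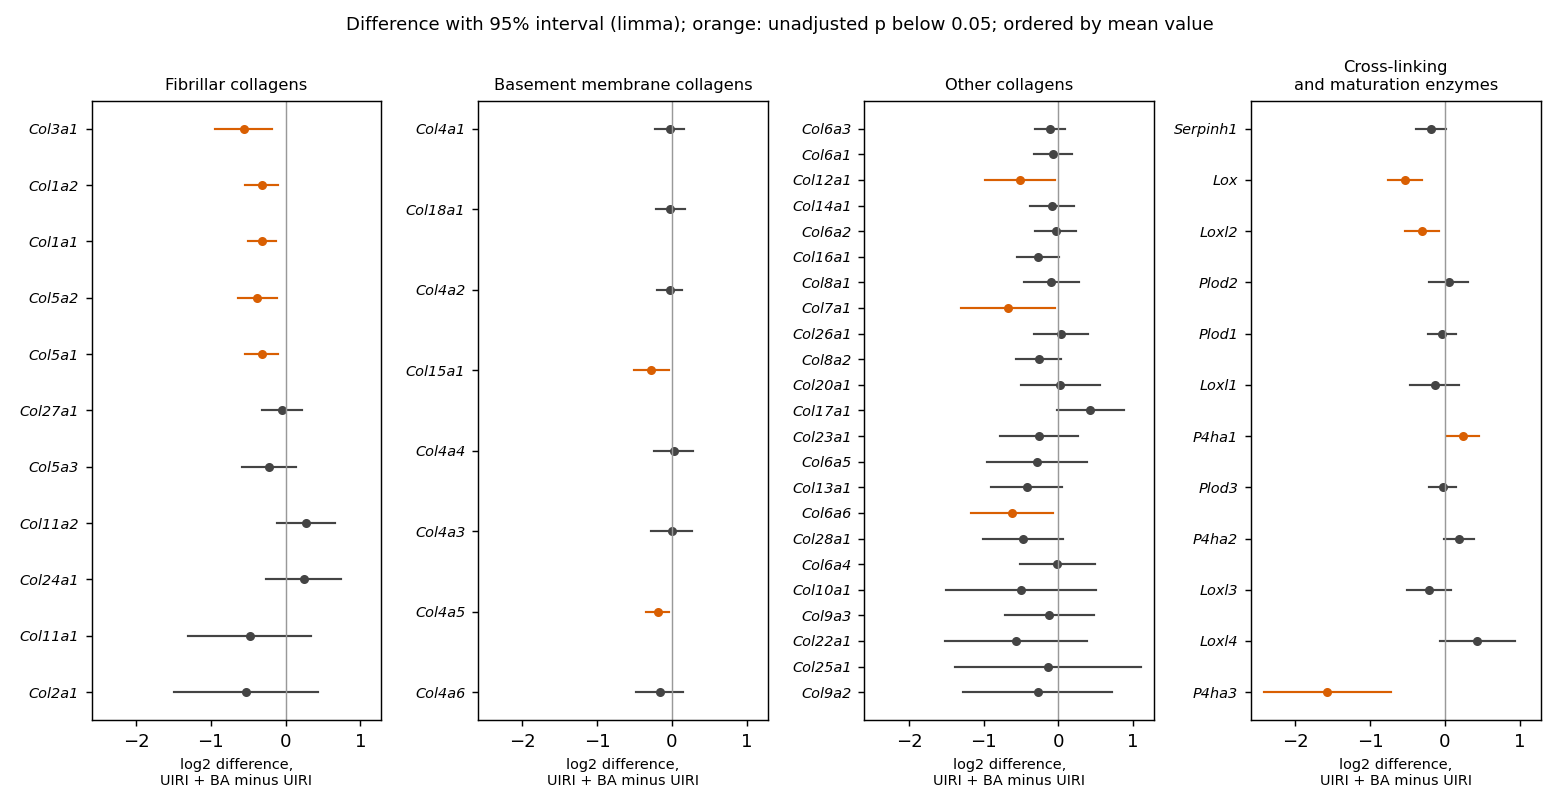
The log2 difference of each of the 54 genes (UIRI + BA minus UIRI, x axis), with its 95% interval from limma, is drawn by class and ordered from the highest mean at the top. Orange marks an unadjusted p below 0.05, which 13 genes left of 0 and P4ha1 right of 0 reached, and the well-expressed fibrillar chains lie left of 0 while Col4a1 to Col4a4 lie on it.

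Sums over each class were set side by side in each library. Fibrillar collagens summed to 98589, 81941 and 89165 normalized counts in UIRI replicates 1 to 3 and to 60456, 63715 and 78398 in UIRI + BA replicates 1 to 3. Every UIRI + BA library was thus below every UIRI library, although UIRI + BA replicate 3 came close. As a share of all reads on genes, fibrillar collagens made up 0.390% to 0.466% in UIRI and 0.292% to 0.370% in UIRI + BA. Basement membrane collagens summed to 60395, 60578 and 63760 in UIRI, against 58965, 56190 and 61296 in UIRI + BA, and these ranges overlapped. Other collagens summed to 18771 to 19031 in UIRI and 15931 to 16836 in UIRI + BA, and the enzymes to 26691 to 28631 and 24002 to 25095, both without overlap. The separation of the other collagens rested on Col12a1, at 4703 in UIRI replicate 3 and 2007 to 2764 in the remaining libraries. With Col12a1 left out, their sums overlap between groups. The median log2 difference was -0.32 for the 11 fibrillar genes, -0.03 for the 8 basement membrane genes, -0.26 for the 23 other collagens and -0.09 for the 12 enzymes. The value for the other collagens was smaller in most settings, at -0.15 with quantile normalization, -0.16 in DESeq2 and -0.23 to -0.16 with 1 library left out, and it was -0.09 over its 7 genes averaging 1000 or more.

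**Figure D2:**
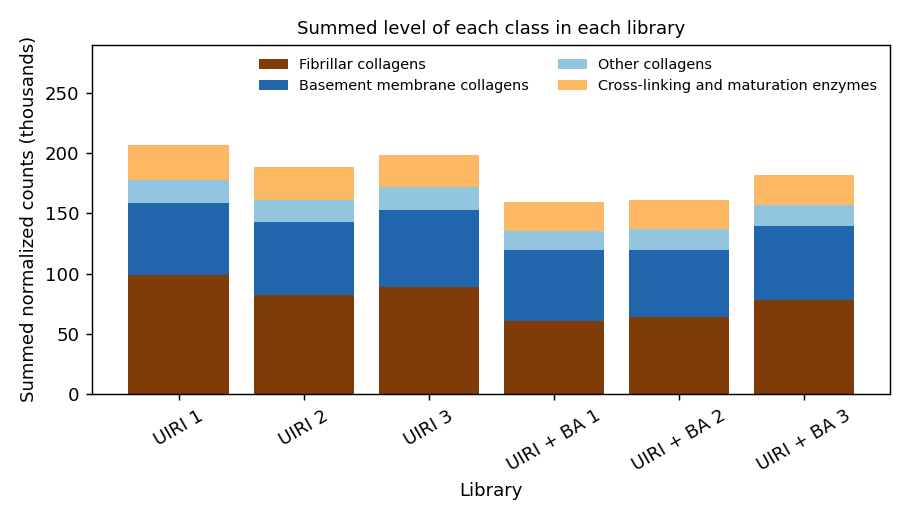
Stacked bars give the summed normalized counts (in units of 1000, y axis) of the 4 classes in each of the 6 libraries (x axis). The fibrillar segment at the bottom runs from 81941 to 98589 in UIRI and from 60456 to 78398 in UIRI + BA, while the basement membrane segment stays between 56190 and 63760. The sums are not corrected for gene length, so segments compare libraries and not classes.

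The RNA came from whole cortex, in which fewer cells of a type and less RNA per cell cannot be told apart. Markers of kidney cell types were read beside the label of cortex. Every listed gene of proximal tubule (10), podocytes (7), endothelium (7), thick limb (5) and collecting duct (7) had a row and none was at 0 throughout. No list of medullary markers was read, so these rows cannot tell cortex from whole kidney. The 10 proximal tubule markers were all higher with BA, 9 of them at an unadjusted p below 0.05, and their sum ran from 58242 to 74866 in UIRI and from 79448 to 133773 in UIRI + BA. The 8 fibroblast and mural markers summed to 22932 to 26425 in UIRI and 19288 to 22896 in UIRI + BA. Of these, 6 were lower, 3 of them at an unadjusted p below 0.05 (Pdgfra at -0.23, Pdgfrb at -0.20 and Vim at -0.30 log2). The 7 leukocyte markers were all lower, 1 at that line, with sums of 67771 to 95526 and 64346 to 76020. The endothelial sum was 8871 to 10552 in UIRI and 8536 to 9740 in UIRI + BA, the podocyte sum 12042 to 13739 and 10921 to 14148, the thick limb sum 26801 to 43329 and 32614 to 45927, and the collecting duct sum 3405 to 3786 and 3135 to 4971. Urothelial markers summed to 1237 to 1583 and 1234 to 1854, most of it Krt20 (log2 difference 0.41, unadjusted p below 0.05), the 1 marker of 8 that was higher, while the list had a median log2 difference of -1.77. Among its 7 lower markers, replicate 3 of each group stood highest, as in Krt15 with 217 and 152 against 55.5 or less in the other libraries. Of the listed adipose, skeletal muscle and cartilage genes, 0 of 5, 2 of 5 and 1 of 4 had a row, and those with a row summed to 51.7 at most. The part that these shifts in markers have in the collagen values was not tested. Depth ran from 16510720 to 38124164 reads on genes, and UIRI replicate 3 was the deepest.

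Upstream sequence was available from RefSeq (GRCm38.p6) for 40 of the 54 genes, and 250 bases before the annotated start are shown for 3. These are the fibrillar genes Col3a1 and Col5a1, both lower with BA, and the enzyme gene P4ha1, higher with BA. All 3 are on the + strand, at chr1:45311288-45311537, chr2:27886175-27886424 and chr10:59323046-59323295, next to the first base of the gene. The build used for counting is not named, so genes were matched by symbol. Capitals mark 4 motifs found on either strand: the TATA box (TATAAA), the CCAAT box (CCAAT), a GC box (GGGCGG) and the core of a hypoxia response element (ACGTG). No matches overlap in these windows.
Col3a1: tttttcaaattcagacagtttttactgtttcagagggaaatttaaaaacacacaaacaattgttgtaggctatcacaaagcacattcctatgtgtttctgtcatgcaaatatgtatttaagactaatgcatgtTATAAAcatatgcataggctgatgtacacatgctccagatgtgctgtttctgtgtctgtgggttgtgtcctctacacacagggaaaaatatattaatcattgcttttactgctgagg
Col5a1: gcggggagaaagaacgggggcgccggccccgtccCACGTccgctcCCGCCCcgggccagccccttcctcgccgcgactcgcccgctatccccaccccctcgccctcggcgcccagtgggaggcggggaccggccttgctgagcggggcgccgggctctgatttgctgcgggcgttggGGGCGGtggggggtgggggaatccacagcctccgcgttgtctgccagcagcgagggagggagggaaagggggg
P4ha1: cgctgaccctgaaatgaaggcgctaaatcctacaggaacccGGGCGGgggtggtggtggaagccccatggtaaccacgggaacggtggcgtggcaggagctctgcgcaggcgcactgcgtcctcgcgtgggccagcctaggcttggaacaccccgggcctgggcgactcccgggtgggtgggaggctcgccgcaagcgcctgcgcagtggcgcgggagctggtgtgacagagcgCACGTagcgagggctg
The Col3a1 window holds 0 CpG dinucleotides at 35.2% GC and has TATAAA, 117 bases before the start, as its single match. Col5a1 has 28 CpG at 76.4% GC, and P4ha1 has 24 CpG at 69.6% GC, both with the GC box. Over the 42 windows of the 40 genes, the GC box was in 66.7%, the CCAAT box in 31%, ACGTG in 21.4% and the TATA box in 14.3%, beside 32.7%, 33.8%, 16.6% and 12.4% of all 32851 mouse windows of that length. A match is a run of letters and not a bound site.

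Type I collagen, the main fiber of scar and bone, is built of 2 chains from Col1a1 and 1 from Col1a2. Col1a1 stood at 17083, 15718 and 15382 normalized counts in UIRI replicates 1 to 3 and at 12658, 12344 and 13545 in UIRI + BA replicates 1 to 3. The groups did not overlap, and their means were 16061 ± 901 and 12849 ± 623 (SD, n = 3 each), a ratio of 0.800. The log2 difference was -0.32 (SE 0.08, limma adjusted p = 0.291, DESeq2 adjusted p = 0.031). Col1a2 gave 26503, 23694 and 26050 in UIRI, against 18971, 19650 and 22603 in UIRI + BA. Again all UIRI + BA libraries were lower, with a log2 difference of -0.32 (SE 0.10, limma adjusted p = 0.364, DESeq2 adjusted p = 0.101).

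Type III collagen is made of a single chain, Col3a1, and mixes with type I in the soft, early fibers of wounds. It measured 46022, 34494 and 39081 in UIRI, against 22478, 24888 and 34434 in UIRI + BA. UIRI + BA replicate 3 lay just under UIRI replicate 2, so the groups were separated only narrowly. The means were 39866 ± 5804 and 27267 ± 6323, a ratio of 0.684, and the log2 difference was -0.56 (95% interval -0.94 to -0.18, limma adjusted p = 0.354, DESeq2 adjusted p = 0.046). Per kilobase, with length taken as all annotated exons of a gene merged, Col3a1 had the highest mean of the collagens in both groups. It had 4061 normalized counts in UIRI and 2778 in UIRI + BA, although Col4a1 (2682) was above Col3a1 (2290) in UIRI + BA replicate 1. Next came Col4a1 (2668 and 2613) and Col1a1 (2447 and 1958). Col1a2 (2045 and 1642) was above Col18a1 (1819 and 1784) in UIRI and below it in UIRI + BA. The chaperone Serpinh1 had 4510 and 3953. Merged exons can be longer than any single transcript, and they came to 12426 bases for Col1a2, 9816 for Col3a1, 7464 for Col4a1 and 6563 for Col1a1. The order of the genes may depend on this choice, and no transcript lengths were used.

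Type V collagen starts type I fibrils and sets their width, from the chains Col5a1 and Col5a2. Col5a1 was 2696, 2498 and 2794 in UIRI, against 1943, 2053 and 2433 in UIRI + BA, with no overlap and a log2 difference of -0.32 (SE 0.10, limma adjusted p = 0.358). For Col5a2 the values were 4297, 3603 and 4362 in UIRI, against 2781, 3039 and 3654 in UIRI + BA. Here UIRI + BA replicate 3 exceeded UIRI replicate 2, so the groups overlapped, with a log2 difference of -0.38 (SE 0.12, limma adjusted p = 0.364). These 5 chains, which were the 5 most highly counted fibrillar genes, were each lower at an unadjusted p below 0.05, also with any 1 library left out. The other 6 fibrillar genes had unadjusted p-values of 0.139 or more. Their log2 differences were -0.05 for Col27a1, -0.22 for Col5a3, -0.48 for Col11a1, -0.53 for Col2a1, 0.24 for Col24a1 and 0.28 for Col11a2. Without UIRI replicate 3, Col27a1 was -0.19 and Col5a3 -0.35, each with an unadjusted limma p below 0.05. With 1 library left out, Col11a1 reached that line in 1 fit and Col2a1, Col24a1 and Col11a2 in 0. In Col11a2, a minor chain of cartilage type XI collagen, every UIRI + BA library (67.8 to 81.4) was above every UIRI library (53.7 to 65.7). Col2a1, the cartilage collagen, rested on 3 to 10 reads a library, and the ratio of its summed reads was 0.638 with a 95% counting interval of 0.268 to 1.42.

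**Figure D3:**
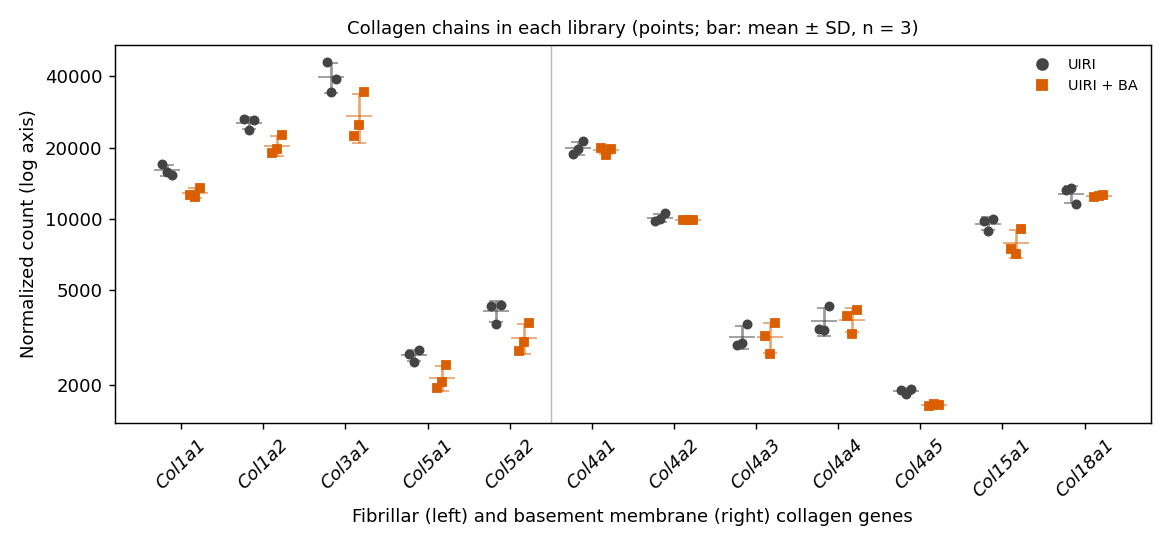
Points are the normalized counts (log y axis) of single libraries for 5 fibrillar and 7 basement membrane collagens (x axis), circles for UIRI and squares for UIRI + BA, with the mean ± SD of 3 libraries. Squares sit below circles in Col1a1, Col1a2, Col3a1, Col5a1 and Col4a5 and mix with them in Col4a1 to Col4a4 and Col18a1.

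Most of the basement membrane collagens had log2 differences nearer to 0, and 2 of the 8 were lower at an unadjusted p below 0.05. Col4a1 and Col4a2 form the type IV network found under nearly all epithelia and vessels. Col4a1 stood at 18762, 19680 and 21296 in UIRI, against 20020, 18645 and 19839 in UIRI + BA, and Col4a2 at 9827, 9972 and 10612 in UIRI, against 9915, 9868 and 9928 in UIRI + BA. Both sets overlapped. The log2 difference was -0.03 for Col4a1 (95% interval -0.22 to 0.17) and -0.03 for Col4a2 (95% interval -0.20 to 0.13). The point estimate for Col3a1, -0.56, lay outside both intervals, but its own 95% interval of -0.94 to -0.18 overlapped them at the edge.

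Col4a3, Col4a4 and Col4a5 form the mature network of the glomerular basement membrane and are the genes of Alport syndrome. Col4a3 was 2953, 2995 and 3594 in UIRI, against 3226, 2703 and 3632 in UIRI + BA, a log2 difference of -0.0019 (95% interval -0.27 to 0.27). Col4a4 was 3451, 3401 and 4295 in UIRI, against 3886, 3287 and 4128 in UIRI + BA, a log2 difference of 0.02 (95% interval -0.24 to 0.29). Neither gene separated the groups. Col4a5 did, with 1910, 1822 and 1912 in UIRI, against 1634, 1668 and 1649 in UIRI + BA. Its libraries were tightly grouped (1882 ± 51.5 and 1650 ± 17.4), and the log2 difference was -0.19 (SE 0.07, limma adjusted p = 0.431). Its unadjusted p was 0.021, and it stayed below 0.05 in 3 of the 6 fits with 1 library left out. Col4a6, the partner of Col4a5 in the capsule and some tubules, was 399, 339 and 503 in UIRI, against 383, 358 and 351 in UIRI + BA, a log2 difference of -0.17 (95% interval -0.48 to 0.15). That of Col4a6 was -0.015 without UIRI replicate 3 and -0.30 without UIRI replicate 2.

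Col15a1 and Col18a1 encode the multiplexins, which join basement membranes to the tissue beneath, and Col18a1 is the source of endostatin. Col15a1 measured 9793, 8896 and 10010 in UIRI, against 7509, 7142 and 9112 in UIRI + BA. UIRI + BA replicate 3 was above UIRI replicate 2, and the log2 difference was -0.28 (SE 0.10, limma adjusted p = 0.442). The unadjusted p of Col15a1 was 0.025 and ran up to 0.110 when UIRI + BA replicate 2 was left out. Col18a1 measured 13300, 13473 and 11538 in UIRI, against 12392, 12519 and 12659 in UIRI + BA, a log2 difference of -0.02 (95% interval -0.22 to 0.17).

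Ratios of chains within a library set fibrillar against basement membrane collagens without any scaling between libraries. The log2 ratio of Col3a1 to Col4a1 was 1.30, 0.81 and 0.88 in UIRI, against 0.17, 0.42 and 0.80 in UIRI + BA. For Col1a1 to Col4a1 it was -0.14, -0.32 and -0.47 in UIRI, against -0.66, -0.59 and -0.55 in UIRI + BA. Neither ratio overlapped between groups, with mean differences of -0.53 and -0.29 on the log2 scale. An exact two-sided permutation test gave p = 0.1 for each, the smallest p that 3 against 3 libraries allow, and 0.3 after Benjamini-Hochberg adjustment over the 12 ratios computed. Partners of 1 trimer kept close ratios. Col1a2 to Col1a1 had a mean log2 ratio of 0.66 ± 0.09 in UIRI and 0.66 ± 0.08 in UIRI + BA (SD, n = 3 each), and Col4a1 to Col4a2 had 0.97 ± 0.04 and 0.98 ± 0.05. For Col4a3 to Col4a4 the means were -0.22 and -0.25, and for Col6a1 to Col6a2 they were 0.91 and 0.87. Col4a1 and Col4a2 start 21 bases apart on opposite strands of chromosome 8, and Col4a5 and Col4a6 start 1343 bases apart on chromosome X. Col4a5 to Col4a6 had mean log2 ratios of 2.21 ± 0.25 in UIRI and 2.18 ± 0.08 in UIRI + BA. The ratios are of counts not divided by gene length, so they compare groups and give no molar proportion.

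**Figure D4:**
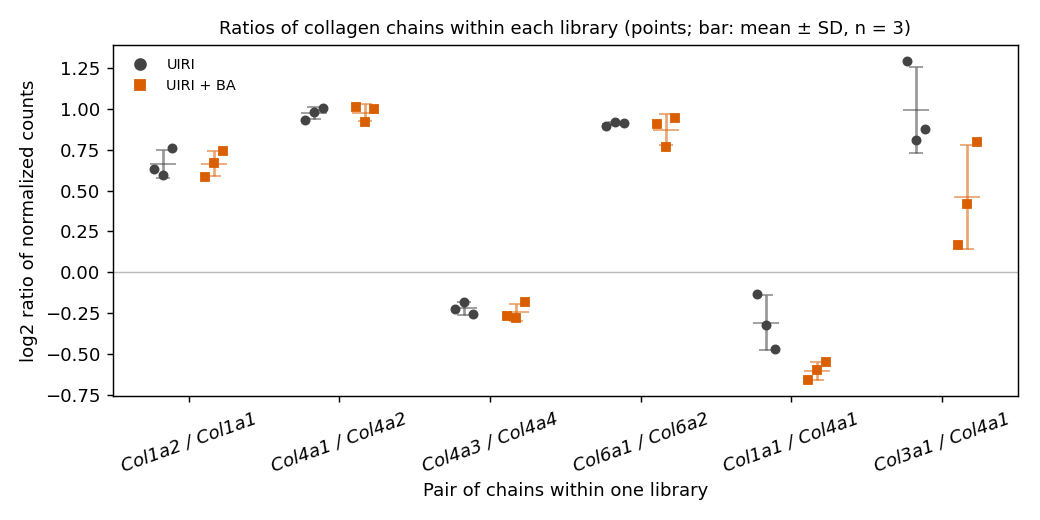
Each point is the log2 ratio of the normalized counts of a pair of chains (x axis) in 1 library, circles for UIRI and squares for UIRI + BA, with the mean ± SD of 3 libraries. The 4 pairs from 1 trimer overlap between groups, and the pairs Col1a1 to Col4a1 and Col3a1 to Col4a1 are lower in every UIRI + BA library.

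The other collagens were lower in 20 of 23 cases, beside 9793 of all 19176 rows. Of these 20 genes, 3 had an unadjusted p below 0.05. The chains of type VI collagen, a beaded microfibril around cells, were among the most highly counted. Col6a1 was 3229, 3342 and 2509 in UIRI, against 2665, 2888 and 3008 in UIRI + BA, Col6a2 was 1733, 1770 and 1331 against 1421, 1697 and 1563, and Col6a3 was 4099, 3949 and 3556 against 3277, 3628 and 3808. All overlapped between groups, and their log2 differences were -0.08 (95% interval -0.33 to 0.18), -0.04 (-0.31 to 0.23) and -0.12 (-0.31 to 0.08). Without UIRI replicate 3 that of Col6a1 was -0.20 (unadjusted p below 0.05).

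Col12a1, which decorates the surface of type I fibrils, was 2764, 2428 and 4703 in UIRI, against 2366, 2007 and 2273 in UIRI + BA. No library overlapped, but UIRI replicate 3 stood high and the lowest UIRI library was close to the highest UIRI + BA library. The log2 difference was -0.52 (SE 0.21, limma adjusted p = 0.465) and -0.23 without UIRI replicate 3. Col7a1, the anchoring fibril of epithelial basement membranes, was 534, 286 and 434 in UIRI, against 197, 215 and 383 in UIRI + BA, which overlapped, with a log2 difference of -0.67 (SE 0.28, limma adjusted p = 0.472). Col6a6, a low-count type VI chain, was 56.6, 87.7 and 62.4 in UIRI, against 33.8, 46.3 and 53.2 in UIRI + BA, without overlap, and its log2 difference was -0.62 (SE 0.24, limma adjusted p = 0.448). Col7a1 had an unadjusted p below 0.05 in 2 of the 6 fits with 1 library left out, Col12a1 in 3 and Col6a6 in 4, and the p of Col6a6 rose to 0.125 without UIRI replicate 2 and, leaving out UIRI + BA replicate 1, to 0.104. Among the 20 remaining genes of this class, log2 differences ran from -0.57 (Col22a1) to 0.43 (Col17a1), and in Col8a2 and Col28a1 the UIRI + BA libraries also lay below all UIRI libraries.

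Among the enzymes, Lox had the smallest p of all 54 genes. It encodes lysyl oxidase, which oxidizes lysine in collagen and elastin so that molecules cross-link. Lox measured 4840, 3793 and 4543 in UIRI, against 2929, 2866 and 3277 in UIRI + BA. All UIRI + BA libraries were below all UIRI libraries. Means were 4392 ± 540 and 3024 ± 221, a ratio of 0.689, and the log2 difference was -0.53 (95% interval -0.77 to -0.30). The adjusted p was 0.225 in limma and 0.003 in DESeq2. With 1 library left out the log2 difference of Lox ran from -0.64 to -0.46, and its unadjusted limma p was at most 0.003. The limma adjusted p was 0.035 without UIRI replicate 3, and in that fit Col1a1 had an adjusted p of 0.044. These were the 2 of 54 members that passed there, both lower. Of all 19176 rows 962 passed in that fit, 344 of them lower, and 2 members are too few to compare with that share.

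The relatives of Lox did not all share its difference. Loxl2, which also acts on type IV collagen, was 2677, 2382 and 2957 in UIRI, against 1953, 2223 and 2315 in UIRI + BA, with no overlap and a log2 difference of -0.30 (SE 0.10, limma adjusted p = 0.392). Loxl1, which is best known for elastic fibers, was 1677, 1915 and 1335 against 1293, 1733 and 1445, a log2 difference of -0.13 (95% interval -0.46 to 0.19). Loxl3 was 743, 773 and 564 against 552, 653 and 576, a log2 difference of -0.21 (95% interval -0.51 to 0.08). Loxl4, the lowest of the family, was 71.4, 109 and 126 against 115, 132 and 161, a log2 difference of 0.44 (95% interval -0.07 to 0.94). Loxl1, Loxl3 and Loxl4 overlapped between groups, and their values depended on single libraries. Without UIRI replicate 3, each had an unadjusted p below 0.05, with log2 differences of -0.28, -0.36 and 0.61. Without UIRI replicate 2, Loxl1 was -0.016 and Loxl3 was -0.13, and without UIRI replicate 1, Loxl4 was 0.20. Loxl4 also had an unadjusted limma p of 0.0235 with a replicate block. The unadjusted p of Loxl2 was 0.061 without UIRI + BA replicate 1.

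P4ha1, P4ha2 and P4ha3 encode alternative catalytic subunits of the prolyl 4-hydroxylase that stabilizes the collagen helix. P4ha1 was 1311, 1385 and 1562 in UIRI, against 1828, 1610 and 1586 in UIRI + BA. Every UIRI + BA library was above every UIRI library, the opposite side from the type I and III chains, with a log2 difference of 0.24 (SE 0.09, limma adjusted p = 0.450). The unadjusted p was 0.030 and was below 0.05 in 3 of the 6 fits with 1 library left out. P4ha2 was 755, 759 and 887 against 886, 920 and 930, in which UIRI + BA replicate 1 was just under UIRI replicate 3, with a log2 difference of 0.19 (95% interval -0.01 to 0.39), and 0.27 (unadjusted p below 0.05) without UIRI replicate 3. The log2 ratio of P4ha1 to Col1a1 was -3.70, -3.50 and -3.30 in UIRI, against -2.79, -2.94 and -3.09 in UIRI + BA. It had to be higher in every UIRI + BA library, since P4ha1 lay above and Col1a1 below in each of them. Its exact two-sided permutation p of 0.1 (0.3 after adjustment) was thus fixed by the 2 genes and adds nothing to them. P4ha3 was scarce, with 10, 9 and 25 reads in UIRI and 2, 3 and 4 reads in UIRI + BA. Its normalized counts were 11.3, 10.1 and 13.7 against 2.51, 3.23 and 4.17, and the ratio of its summed reads per size factor was 0.274 with a 95% exact counting interval of 0.118 to 0.569. The limma log2 difference of P4ha3, which depends on the pseudocount at this depth, was -1.57 (adjusted p = 0.263).

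The lysyl hydroxylases and the chaperone had intervals that include 0. Plod1 was 1739, 1714 and 1525 in UIRI, against 1553, 1717 and 1576 in UIRI + BA, Plod2, which hydroxylates the telopeptides used in stable cross-links, was 1548, 1592 and 2010 against 1927, 1572 and 1813, and Plod3 was 1484, 1444 and 1309 against 1330, 1408 and 1413. Their log2 differences were -0.04 (95% interval -0.23 to 0.15), 0.05 (-0.22 to 0.32) and -0.03 (-0.21 to 0.15). Serpinh1 was 11775, 11416 and 9860 in UIRI, against 9634, 9335 and 10000 in UIRI + BA, where UIRI + BA replicate 3 overlapped UIRI replicate 3, with a log2 difference of -0.19 (95% interval -0.39 to 0.01), and -0.26 (unadjusted p below 0.05) without UIRI replicate 3. Lox was lower relative to Serpinh1 in every UIRI + BA library, with log2 ratios of -1.28, -1.59 and -1.12 in UIRI, against -1.72, -1.70 and -1.61 in UIRI + BA (exact two-sided permutation p = 0.1, 0.3 after adjustment). Relative to Col1a1, Lox overlapped between groups.

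**Figure D5:**
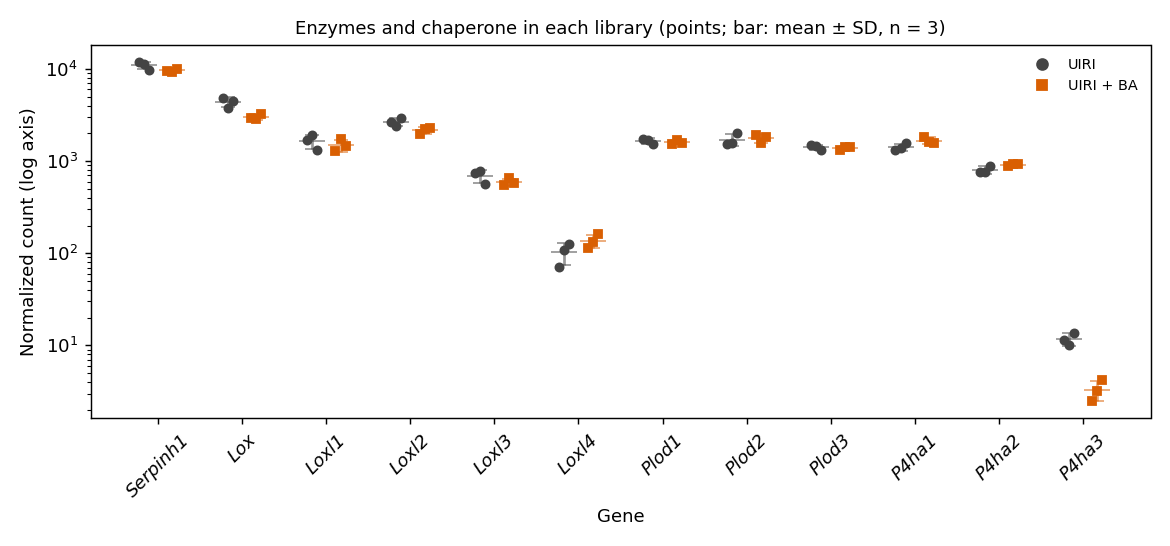
Points are the normalized counts (log y axis) of the chaperone Serpinh1 and the 11 enzyme genes (x axis) in single libraries, circles for UIRI and squares for UIRI + BA, with the mean ± SD of 3 libraries. Squares lie below circles in Lox, Loxl2 and P4ha3 and above them in P4ha1.

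A wider list of collagen handling genes was read beside these. Of 44 listed genes 42 had a row, with 30 lower and 12 higher, a median log2 difference of -0.12, 8 lower at an unadjusted p below 0.05 (19.0%) and 4 higher (9.52%), beside 4.61% and 5.67% of all rows, and 0 at an adjusted p in limma, DESeq2 or edgeR. Beside 9793 lower of all 19176 rows, the 12 fibril-binding proteins were all lower, 2 of them at that line. These were Sparc, a collagen-binding matricellular protein, with means of 31579 ± 2871 and 24723 ± 2132 (log2 difference -0.35), and Fn1, the fibronectin on which fibrils assemble, with 19747 ± 2470 and 15704 ± 1098 (-0.32). Of 14 folding and secretion genes 2 were lower, Fkbp10 (-0.42, 980 ± 64.9 against 734 ± 81.6), a prolyl isomerase that aids collagen cross-linking, and P3h4 (-0.29). In that group 2 were higher, of which P3h2, a prolyl 3-hydroxylase acting on type IV collagen, had 0.42. Of 7 propeptide removal genes Bmp1, the procollagen C-proteinase, was lower (-0.33) and Pcolce2, an enhancer of it, was higher (0.40). Among 9 collagen receptor genes the integrin subunit Itga2 (-0.39), the inhibitory leukocyte receptor Lair1 (-0.32) and the kinase Ddr2 (-0.21) were lower and 1 was higher. In each of these 8 lower genes all UIRI + BA libraries lay below all UIRI libraries, as in 6.96% of all rows. The genes were picked by p in the same libraries, so this adds no separate support.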

How the data were processed

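Renal cortex was sequenced in 3 UIRI and 3 UIRI + BA libraries, grouped by their labels. The authors aligned reads with HISAT2 and counted them with FeatureCounts. The genome build is not given in the sources used here. The deposited signal of a gene is its read count over the size factor of the library. Undoing that scaling gave whole reads for 100% of values, within 0.01 reads. Fold changes and p-values of the authors' own comparison, and their tables of enriched terms, were not used, and 0 other columns of values per library went unused. limma 3.58.1 (R 4.3.3) was fitted to log2 of the value plus 1 over all 19176 rows, with an intensity trend, no covariate and Benjamini-Hochberg adjustment. It was also run on simulated counts with the same dispersion for every gene and no deviating library. That setting differs from these libraries, so it does not measure how many true differences limma finds here. The authors used DESeq2. Here limma was chosen as the main test because the deposited values are normalized, although count tests were possible on the recovered reads. Those reads were also tested with DESeq2 1.42.0 and edgeR 4.0.16. Counting intervals cover counting error only. Lengths (all annotated exons of a gene merged) and positions came from GENCODE M21, by symbol, for all 54 genes. The study describes the libraries of a group as independent biological replicates. The members, the lists and the tests were chosen with earlier results of these data known. Values in each library were given for genes with an unadjusted p below 0.05, the 3 most highly counted of each class, the type I, III, IV and VI chains and the 12 enzymes. Of the wider list, at most the 10 with the smallest p were named, and Col11a2, Col2a1, Col8a2, Col28a1 and other members are named beyond it, picked with their values in view. Alternatives were a pseudocount of 0.1, a mean of at least 10, upper quartile and quantile scaling, a replicate block and each library left out.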

Additional observations from a re-analysis of the deposited data

How the results depend on the processing

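Of 31 single members under 13 alternatives, 351 values kept their direction and side of the 0.05 line in unadjusted p, 19 lost it, 7 gained it and 24 changed sign. The changes of sign were in genes near 0, and the cause was not tested. Col4a4 was -8.7e-05 with upper quartile scaling and -0.00897 with quantile normalization, Col4a2 was 0.0118 and Col18a1 0.00966 with quantile normalization, and Col4a3 was 0.0019 in DESeq2 and 0.00042 in edgeR. With each library left out, the ranges were -0.071 to 0.021 for Col4a1, -0.055 to 0.00064 for Col4a2, -0.10 to 0.11 for Col4a3, -0.048 to 0.13 for Col4a4, -0.20 to 0.0019 for Col6a1, -0.17 to 0.035 for Col6a2, -0.020 to 0.17 for Plod2, -0.082 to 0.0086 for Plod3 -0.096 to 0.016 for Col18a1 and -0.30 to -0.015 for Col4a6. The genes passing an adjusted p numbered 213 in DESeq2, 3 of them members, and 0 to 962 with each library left out, 0 to 2 of them members, with the 962 without UIRI replicate 3. Members lower at an unadjusted p numbered 8 to 20 and members higher 0 to 3, and of the 42 genes of the wider list 4 to 14 were lower and 0 to 5 higher, beside 1.61% to 11.5% of all rows lower and 2.61% to 13.7% higher. Without UIRI replicate 3, the 3 of 54 members and 5 of 42 list genes higher are smaller shares than the 13.7% of all rows. The enzyme median ran from -0.16 to -0.015.

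Correlations of deviations over genes were -0.24, 0.304 and 0.155 for same-numbered libraries of the 2 groups. For differently numbered libraries they ran from -0.413 to 0.235. These values showed no clear pairing, but with 3 libraries per group they cannot exclude it. The fit with a replicate block passed 6 genes of the table, no member among them, with 3 members higher and 2 genes of the wider list higher, beside 5.76% of all rows. It gave 13 members lower, as without the block, beside 5.23% of all rows. Depth limits genes such as P4ha3, with 2 to 25 reads a library.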
